A study of Mus musculus with 10 samples.

Results

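The immunoglobulin constant region genes examined here are 10 genes of the 47643 in the count table: the heavy chain genes Ighm, Ighd, Ighg3, Ighg1, Ighg2b, Ighg2c and Igha, the kappa light chain gene Igkc and the lambda light chain genes Iglc1 and Iglc2. They were taken by gene symbol, and all 10 were found. Although named by symbol, the family was chosen by the counts of these same tumours, since the low values of Ighg2c in Fes KO had drawn attention to it, so the comparison of Fes KO with Fes WT is given for these genes as a description, with no test. Of the 10 genes, 6 passed the filter on low counts and entered the fit across 14816 genes. Ighg1, Iglc1 and Iglc2 were under that filter, and Ighg3 had 0 counts in every tumour.

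RNA was sequenced from 10 mouse melanomas, 5 labelled Fes KO and 5 labelled Fes WT. Fes encodes a cytoplasmic tyrosine kinase. The Fes KO tumours were Fes-/- and the Fes WT tumours Fes+/+, on a shared background that included Tyr::CreERT2/+ and BRafV600E/+. Both groups thus carried the Cre transgene, which the Tyr promoter directs to pigment cells, together with the BRaf V600E allele, and both received 4OH-tamoxifen at 5 mM on the skin of the back. The Fes allele is written as Fes-/-, with no conditional mark. The sources used here do not give strain, age or time to collection. No label says that the tumours came from separate animals, so errors and p-values describe how these tumours spread.

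Total counts were 13226783 to 16599120 per tumour. In Fes KO, Fes itself was at 29.2 to 57.5 CPM (counts scaled to library size), and Fes WT tumours had 72.4 to 102 CPM. Sox10, a marker of the melanocyte lineage, was at 392 to 970 CPM for Fes KO and 461 to 809 CPM for Fes WT. The pigment genes Pmel, Mlana, Dct and Tyr were highest in Fes KO 2, with Dct at 325 CPM, and Mlana was at 0 in Fes KO 5. Xist, the RNA of the inactive X chromosome, was at 670 CPM or above in Fes KO 1, Fes KO 2 and Fes WT 5 and at 0.678 CPM or below in the other tumours. Fes KO 2 also had the highest sum of 10 keratinocyte markers, 5340 CPM, where the other Fes KO tumours had 11.4 to 14.9 CPM, and Fes WT 3 the highest sum of 8 skeletal muscle markers, 14043 CPM. In the fit across all genes, 26 of 14816 genes differed at an adjusted p below 0.05 (edgeR quasi-likelihood test, Benjamini-Hochberg), 7 higher and 19 lower in Fes KO.

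An antibody is built from heavy and light chains, each with a variable region that binds antigen and a constant region. A B cell first makes its heavy chain from Ighm and Ighd, and class switch recombination then joins the same variable region to a downstream constant gene, for IgG, IgE or IgA, deleting the DNA in between. B cells express these genes at modest levels and plasma cells at very high levels, and plasma cells secreting IgA or IgM add the joining chain, Jchain. Heavy chain constant genes can also be transcribed without a rearranged variable segment, as germline transcripts that start upstream of each constant region. In bulk tissue, fewer cells of a type and less RNA per cell cannot be told apart.

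The heavy chain genes lie in a row on the minus strand of chromosome 12 in GRCm38 (GENCODE M21), in the order of transcription Ighm (ENSMUSG00000076617, chr12:113418558-113422730), Ighd (ENSMUSG00000104213, chr12:113406604-113416324), Ighg3 (ENSMUSG00000076615, chr12:113356224-113361232), Ighg1 (ENSMUSG00000076614, chr12:113325240-113330523), Ighg2b (ENSMUSG00000076613, chr12:113302965-113307933), Ighg2c (ENSMUSG00000076612, chr12:113285325-113288932), Ighe (chr12:113269260-113273248) and Igha (chr12:113254830-113260236). Igkc (ENSMUSG00000076609) lies on the plus strand at chr6:70726435-70726966. Iglc1 (ENSMUSG00000105906) and Iglc2 (ENSMUSG00000076937) lie on the minus strand at chr16:19061618-19062071 and chr16:19198396-19200351. The 4 IgG genes are paralogs, and how well their reads can be told apart bears on every value below. The hinge, the flexible link between the antigen-binding arms and the Fc part, is the short exon in which they differ most plainly. It is printed 5′ to 3′ on the coding strand from the GENCODE M21 transcripts, with capitals for runs of at least 8 bases that also occur in the hinge exon of another of the 4 genes.
Ighg3 hinge exon, chr12:113360529-113360576: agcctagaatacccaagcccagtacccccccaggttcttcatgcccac
Ighg1 hinge exon, chr12:113329844-113329882: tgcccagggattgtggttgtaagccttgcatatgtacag
Ighg2b hinge exon, chr12:113307261-113307326: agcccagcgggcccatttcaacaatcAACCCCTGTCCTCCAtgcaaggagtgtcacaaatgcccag
Ighg2c hinge exon, chr12:113288263-113288325: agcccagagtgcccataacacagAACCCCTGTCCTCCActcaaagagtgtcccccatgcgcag

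Only Ighg2b and Ighg2c share such a run in the hinge. Over the coding exons, Ighg2c was 85.6% identical to Ighg2b, 75.5% to Ighg3 and 74.9% to Ighg1. The longest stretch of identity between Ighg2c and Ighg2b, 78 bases, lies in a later exon and is printed in capitals with its flanks, since it is where a short read could belong to either gene.
Ighg2b, chr12:113306849-113306966: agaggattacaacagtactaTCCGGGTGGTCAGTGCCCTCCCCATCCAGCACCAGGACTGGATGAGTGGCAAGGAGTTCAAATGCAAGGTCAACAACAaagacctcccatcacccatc
Ighg2c, chr12:113287849-113287966: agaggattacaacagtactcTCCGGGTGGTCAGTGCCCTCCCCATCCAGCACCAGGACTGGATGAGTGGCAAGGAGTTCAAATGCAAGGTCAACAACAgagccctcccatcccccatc

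Of the 1251 windows of 75 bases in the Ighg2c transcripts, 6 (0.48%) occurred also in Ighg2b and none in another gene. The share was 0.768% for Ighg2b, 0.574% for Ighg3, 0.931% for Iglc2 and 0 for the other 6 genes. Iglc2 and Iglc3 were 96.2% identical in their coding exons. Neither the read length nor the treatment of reads with more than 1 match is given in the sources used here.

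Ighg2c encodes the constant region of IgG2c, an isotype that binds the activating Fc receptors strongly. In Fes KO 1 to 5 it had 0, 2, 0, 0 and 0 counts, and in Fes WT 1 to 5 it had 12, 33, 111, 110 and 38 counts. Every Fes WT tumour was thus above every Fes KO tumour, and 4 of the 5 Fes KO tumours had no count at all. Some mouse strains carry Ighg2a at this place in the locus instead of Ighg2c. Neither the strain nor the haplotype of this locus is given, and Ighg2a was not analysed here, so low IgG2 expression and a haplotype without Ighg2c cannot be told apart, for this gene's counts, folds and shares alike. The level was 0.0249 ± 0.0558 (Fes KO) and 3.96 ± 2.89 CPM (Fes WT; SD, n = 5 each), a fitted log2 fold change of -6.87 (SE 0.96) that depends on how counts of 0 are handled. Summed over tumours, the 2 counts in Fes KO and 304 in Fes WT gave a level 155-fold higher in Fes WT, with an exact 95% interval of 42.5 to 1284 that covers counting error only. Both counts in Fes KO came from Fes KO 2, and without it the mean of the other 4 Fes KO tumours was 0 CPM.

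Ighg2b encodes IgG2b, the closest relative of IgG2c. Its counts were 9, 5, 0, 3 and 8 in Fes KO 1 to 5 and 70, 57, 35, 168 and 19 in Fes WT 1 to 5. Here too the groups did not overlap, but the low group was not at 0. The level was 0.332 ± 0.249 (Fes KO) and 4.44 ± 3.46 CPM (Fes WT; SD, n = 5 each), a log2 fold change of -3.73 (SE 0.75).

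Ighg1 encodes IgG1, the isotype favoured by the cytokine IL-4. Its counts were 2, 53, 0, 0 and 0 in Fes KO and 578, 2, 9, 96 and 11 in Fes WT, in the order of the replicate numbers. The groups overlapped, and 1 tumour in each held most of the counts, Fes KO 2 and Fes WT 1. The mean was 0.686 ± 1.47 (Fes KO) and 9.03 ± 16.2 CPM (Fes WT; SD, n = 5 each). Without Fes KO 2 the Fes KO mean was 0.0315 CPM, and without Fes WT 1 the Fes WT mean was 1.85 CPM. Ighg3, the first IgG gene of the row, had 0 counts in all 10 tumours, and so had Ighe, the gene for IgE.

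Igha encodes IgA, the isotype of mucosal surfaces. Its counts were 113, 501, 0, 21 and 1 in Fes KO 1 to 5 and 310, 50, 652, 623 and 156 in Fes WT 1 to 5. Fes KO 1 and Fes KO 2 lay inside the Fes WT range, and the other 3 Fes KO tumours lay below it. Levels were 7.96 ± 13.3 (Fes KO) and 23.2 ± 16.9 CPM (Fes WT; SD, n = 5 each), a log2 fold change of -1.54 (SE 1.29). Leaving out Fes KO 2 gave a Fes KO mean of 2.14 ± 3.38 CPM (SD, n = 4) and a log2 fold change of -3.43.

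Ighm encodes the heavy chain of IgM, and it was the one heavy chain gene with at least 200 counts in every tumour. In Fes KO 1 to 5 it had 337, 1153, 437, 354 and 200 counts, and in Fes WT 1 to 5 it had 651, 427, 531, 357 and 397 counts. Fes KO 2 was the highest and Fes KO 5 the lowest of all 10, so that the Fes KO values spanned the Fes WT values. The means were 31.6 ± 23.0 (Fes KO) and 31.3 ± 7.86 CPM (Fes WT; SD, n = 5 each), a log2 fold change of 0.01 (SE 0.40). That value was -0.56 without Fes KO 2.

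Ighd encodes IgD, which naive B cells make from the same primary transcript as IgM. Its counts were 7, 16, 14, 58 and 6 in Fes KO and 24, 7, 13, 9 and 5 in Fes WT. The groups overlapped, with Fes KO 4 above all others. Levels were 1.31 ± 1.41 (Fes KO) and 0.759 ± 0.487 CPM (Fes WT; SD, n = 5 each). The log2 fold change of 0.77 (SE 0.66) turned to -0.14 without Fes KO 4, where the Fes KO mean was 0.685 CPM.

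Igkc encodes the only kappa constant region, which most mouse antibodies use. Its counts were 66, 359, 1, 45 and 5 in Fes KO 1 to 5 and 549, 82, 486, 559 and 149 in Fes WT 1 to 5. Only Fes KO 2 among the Fes KO tumours reached into the Fes WT range. Levels of Igkc were 5.98 ± 9.33 (Fes KO) and 23.7 ± 14.3 CPM (Fes WT; SD, n = 5 each), a log2 fold change of -1.98 (SE 1.09). With Fes KO 2 left out, they were 1.88 ± 1.99 CPM in Fes KO (SD, n = 4), a log2 fold change of -3.64. The gene model of Igkc overlaps Gm30211 on the same strand, and no gene of that symbol is in the count table.

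The lambda genes were low throughout. Iglc1 had 4, 43, 0, 9 and 1 counts in Fes KO and 5, 0, 10, 1 and 3 counts in Fes WT. Iglc2 had 0, 9, 1, 13 and 0 counts in Fes KO and 2, 0, 2, 4 and 0 counts in Fes WT. Both genes overlapped between the groups, and the highest values of each were in Fes KO, in Fes KO 2 for Iglc1 and Fes KO 4 for Iglc2. Mean levels were 0.719 ± 1.12 and 0.254 ± 0.260 CPM for Iglc1 and 0.295 ± 0.390 and 0.101 ± 0.103 CPM for Iglc2, in Fes KO and Fes WT (SD, n = 5 each). Without Fes KO 2 the Fes KO mean of Iglc1 was 0.228 CPM, and without Fes KO 4 that of Iglc2 was 0.156 CPM. Without Fes WT 3 and Fes WT 4, in turn, the Fes WT means were 0.154 CPM for Iglc1 and 0.0655 CPM for Iglc2.

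**Figure D1:**
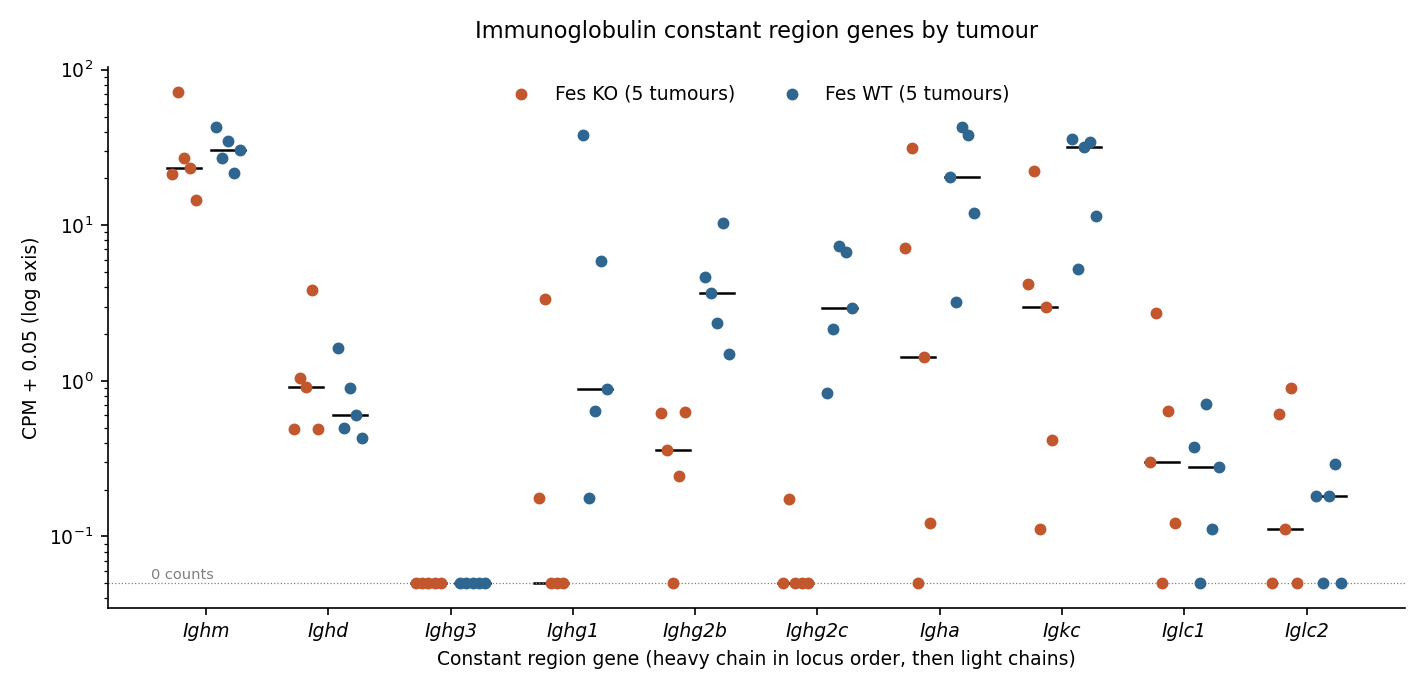
Level of the constant region genes in each tumour, in CPM plus a small constant on a log axis, with 1 point per tumour (orange for Fes KO, blue for Fes WT), a black line at each group's median and a dotted line at 0 counts. Ighg2b and Ighg2c show no overlap between the groups, Ighm lies between 14.6 and 71.9 CPM in all 10 tumours, and Fes KO 2 is the highest Fes KO tumour for Ighg1, Igha, Ighm, Igkc and Iglc1.

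Per kilobase of exon, which allows genes to be compared, the order of mean levels in Fes WT was Igkc at 44.5, Ighm at 16.6, Igha at 8.70, Ighg1 at 3.48, Ighg2c at 2.98, Ighg2b at 1.66, Iglc1 at 0.561, Ighd at 0.400 and Iglc2 at 0.165 CPM per kilobase. In Fes KO it was Ighm at 16.7, Igkc at 11.2, Igha at 2.98, Iglc1 at 1.58, Ighd at 0.688, Iglc2 at 0.481, Ighg1 at 0.265, Ighg2b at 0.124 and Ighg2c at 0.0188 CPM per kilobase. The spread between tumours was wide enough that neighbours such as Ighg1 and Ighg2c in Fes WT, Ighm and Igkc in Fes KO, or Iglc2 and Ighg1 in Fes KO, cannot be ranked against each other. By their means, Igkc came first in Fes WT and Ighm in Fes KO, and Ighg1, Ighg2b and Ighg2c stood above both lambda genes in Fes WT and below them in Fes KO.

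Across the 6 constant region genes in the fit, 4 had a log2 fold change below 0, with a median of -1.76, where 47.6% of all tested genes were below 0 and the median of all was 0.01. The 4 were also at -1 or lower, as were 3.64% of all tested genes. Ighg2b and Ighg2c had every Fes KO tumour below every Fes WT tumour, as had 1.11% of all tested genes. Ighg2c passed the filter on low counts only through Fes WT. Since the genes were chosen with this contrast known, nothing is read from these counts.

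The make-up of the heavy chain pool was then taken as the share of each isotype among the summed counts of the 7 heavy chain genes, which numbered 468, 1730, 451, 436 and 215 in Fes KO 1 to 5 and 1645, 576, 1351, 1363 and 626 in Fes WT 1 to 5. Ighm made up 72.0%, 66.6%, 96.9%, 81.2% and 93.0% in Fes KO and 39.6%, 74.1%, 39.3%, 26.2% and 63.4% in Fes WT. The Fes KO shares were mostly the higher ones, but Fes WT 2 lay among them. The mean share of Ighm was 82.0% ± 13.0 in Fes KO and 48.5% ± 19.6 in Fes WT (SD, n = 5 each). The rest in Fes KO 3 was all Ighd, 14 counts, and in Fes KO 5 it was 8 counts of Ighg2b, 6 of Ighd and 1 of Igha.

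Igha took 24.1%, 29.0%, 0%, 4.82% and 0.465% of heavy chain counts in Fes KO and 18.8%, 8.68%, 48.3%, 45.7% and 24.9% in Fes WT. The groups overlapped, with a mean of 11.7% ± 13.8 in Fes KO and 29.3% ± 17.2 in Fes WT (SD, n = 5 each). Without Fes KO 2 the Fes KO mean was 7.36%. In Fes KO 1 and Fes KO 2, IgA was therefore as large a part of the pool as in several Fes WT tumours.

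Ighg2c took 0.729%, 5.73%, 8.22%, 8.07% and 6.07% of heavy chain counts in Fes WT 1 to 5, with 95% Wilson intervals from 0.418% to 1.27% in Fes WT 1 and from 6.87% to 9.80% in Fes WT 3. In Fes KO 2 its share was 0.116% (95% Wilson interval 0.0317% to 0.421%). In the other Fes KO tumours the count of 0 allows a share of up to 0.641%, 0.665%, 0.688% and 1.4% in Fes KO 1, 3, 4 and 5, taking 3 counts as the limit. These limits, and the interval of Fes KO 2, reach into the interval of Fes WT 1 or past it. Overlap of intervals is not a test, and a difference from Fes WT 1 was not tested. The limits and the interval of Fes KO 2 lie below the interval of Fes WT 2 (4.11% to 7.94%), the lowest of the other 4 Fes WT tumours. Intervals and limits cover counting error only. The mean was 0.0231% ± 0.0517 in Fes KO and 5.76% ± 3.03 in Fes WT (SD, n = 5 each). Divided by exonic length, the Fes WT mean was 9.13% ± 4.99, since the Ighg2c model is short beside the others.

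The other isotypes varied between tumours of the same group. Ighg1 took 35.1% (95% Wilson interval 32.9% to 37.5%) in Fes WT 1 and 7.04% or less elsewhere, and the Fes WT mean of 8.99% became 2.45% without Fes WT 1. Ighd took 13.3% in Fes KO 4 and between 0.660% and 3.10% in the others, and the Fes KO mean of 4.32% became 2.08% without Fes KO 4. Ighg2b took 0% to 3.72% in Fes KO, with a mean of 1.32% that became 0.725% without Fes KO 5, and 2.59% to 12.3% in Fes WT, with 9.90% in Fes WT 2 and 12.3% in Fes WT 4.

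**Figure D2:**
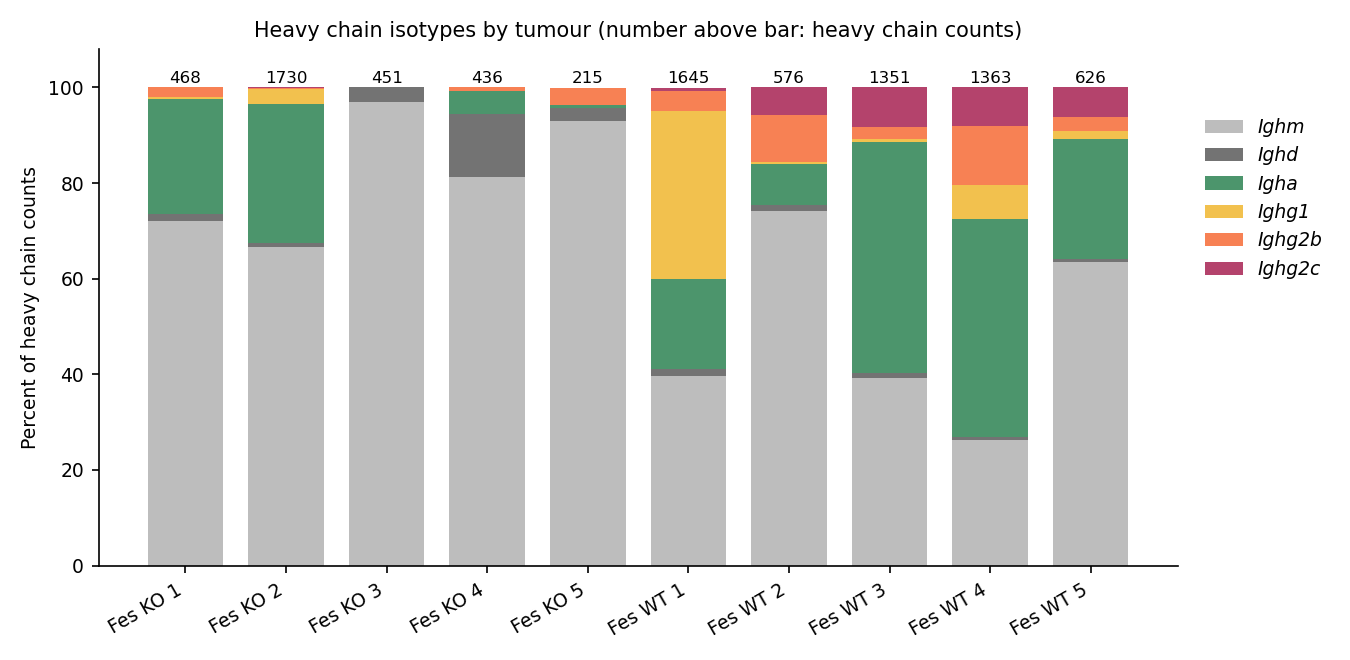
Share of each heavy chain isotype among the summed heavy chain counts, in percent, as 1 stacked bar per tumour from 0 to 100. Ighm makes up 66.6% or more of the bar in all 5 Fes KO tumours and 26.2% to 74.1% in Fes WT, and the Ighg2c segment, at 0.729% to 8.22% in Fes WT, is at most 0.116% in Fes KO.

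Within IgG alone, the counts were 11, 60, 0, 3 and 8 in Fes KO and 660, 92, 155, 374 and 68 in Fes WT. Ighg2c made up 1.82%, 35.9%, 71.6%, 29.4% and 55.9% of them in Fes WT 1 to 5. In Fes KO 2, the Fes KO tumour with the most IgG counts, it made up 3.33% (95% Wilson interval 0.919% to 11.4%). That lies above Fes WT 1 and below the other 4 Fes WT tumours. The other Fes KO tumours had too few IgG counts for a share to be read. The leading IgG gene of a tumour differed within Fes WT, being Ighg1 in Fes WT 1, Ighg2b in Fes WT 2 and Fes WT 4, and Ighg2c in Fes WT 3 and Fes WT 5.

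All switched isotypes together, IgG and IgA, were 26.5%, 32.4%, 0%, 5.50% and 4.19% of heavy chain counts in Fes KO 1 to 5 and 59.0%, 24.7%, 59.7%, 73.1% and 35.8% in Fes WT 1 to 5. Fes WT 2 lay below Fes KO 1 and Fes KO 2, and the rest did not overlap. The mean was 13.7% ± 14.7 in Fes KO and 50.5% ± 19.7 in Fes WT (SD, n = 5 each), and 9.05% in Fes KO without Fes KO 2.

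Light chain was next set against heavy chain, which an antibody-making cell produces in matched protein amounts. Counts of Igkc per heavy chain count were 0.141, 0.208, 0.00222, 0.103 and 0.0233 in Fes KO 1 to 5 and 0.334, 0.142, 0.360, 0.410 and 0.238 in Fes WT 1 to 5. The ratio was thus lowest where Ighm made up most of the heavy chain pool, in Fes KO 3 and Fes KO 5. Its mean was 0.0954 ± 0.0846 in Fes KO and 0.297 ± 0.107 in Fes WT (SD, n = 5 each).

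With Ighm left out of the heavy chain, the ratio was nearly the same in all Fes WT tumours. Counts of Igkc per count of the other 6 heavy chain genes were 0.552, 0.550, 0.593, 0.556 and 0.651 in Fes WT, a mean of 0.580 ± 0.0430 (SD, n = 5). In Fes KO 1, 2 and 4 they were 0.504, 0.622 and 0.549, close to the Fes WT values. In Fes KO 3 and Fes KO 5 they were 0.0714 and 0.333, from only 1 and 5 Igkc counts, and all 14 heavy chain counts of this kind in Fes KO 3 were Ighd.

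Ighm varied far less between tumours than the kappa chain, and whether the genes rose and fell together was not tested. From the lowest to the highest tumour Ighm spanned 4.93-fold in CPM, whereas Igkc spanned 582-fold. Fes KO 3 is the extreme case, with 437 Ighm counts beside 1 Igkc count, 1 lambda count, 0 IgG counts and 0 IgA counts. Counts of Igkc per Ighm count went from 0.00229 in that tumour to 1.57 in Fes WT 4. Whether the Ighm reads in such tumours come from rearranged or from germline transcripts was not tested, since the deposited counts are per gene.

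**Figure D3:**
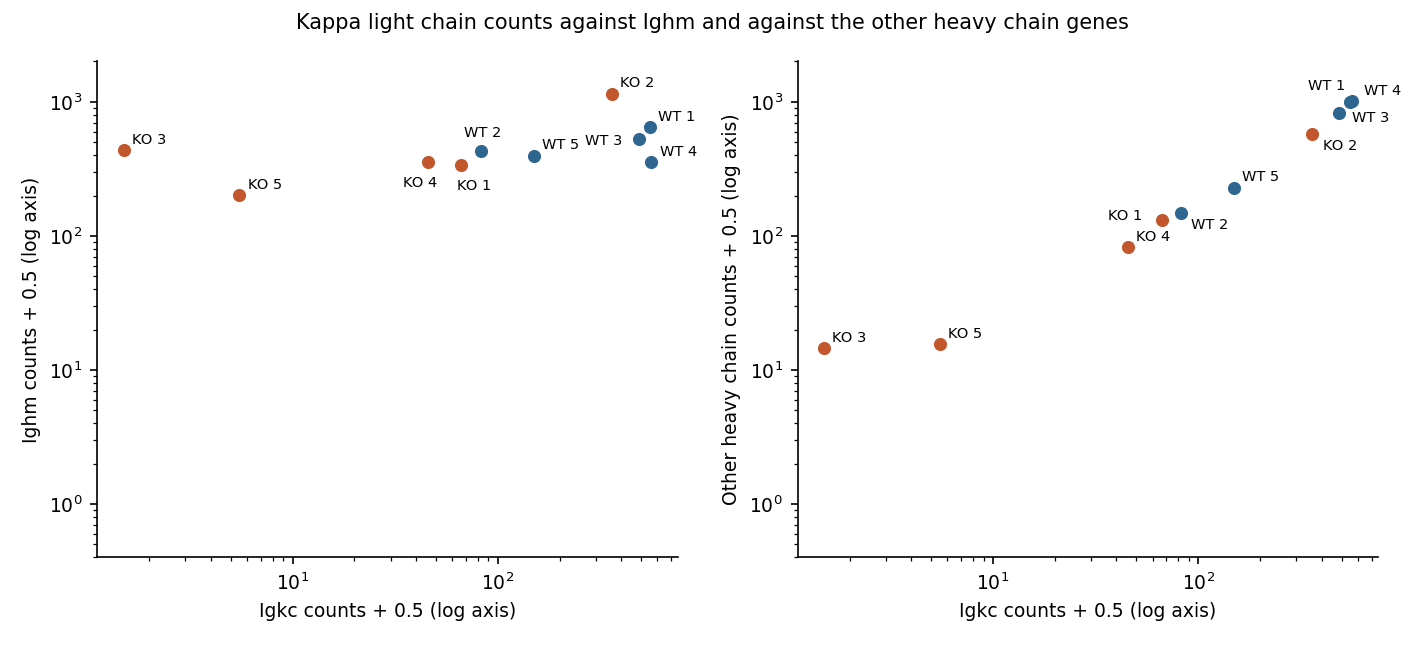
Ighm (left) and the sum of the other 6 heavy chain genes (right) on the vertical axes against Igkc on the horizontal axes, in counts plus a small constant on log axes, with 1 labelled point per tumour (orange for Fes KO, blue for Fes WT). Igkc spans 1 to 559 counts while Ighm stays between 200 and 1153 counts, and with Ighm left out the Fes WT tumours lie at 0.550 to 0.651 Igkc counts per heavy chain count.

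The balance of kappa and lambda was taken next. Lambda counts, Iglc1 and Iglc2 together, were 4, 52, 1, 22 and 1 in Fes KO and 7, 0, 12, 5 and 3 in Fes WT. As a share of kappa and lambda counts they were 5.71%, 12.7%, 50.0%, 32.8% and 16.7% in Fes KO 1 to 5 and 1.26%, 0%, 2.41%, 0.887% and 1.97% in Fes WT 1 to 5. By these counts, which leave out Iglc3, every Fes KO tumour was above every Fes WT tumour. The 95% Wilson intervals of Fes KO 2 (9.78% to 16.2%) and Fes KO 4 (22.8% to 44.7%) lie clear of that of Fes WT 3 (1.38% to 4.16%), the highest of its group. Those of Fes KO 1 (2.24% to 13.8%) and Fes KO 5 (3.01% to 56.4%) overlap it. That of Fes KO 3 (9.45% to 90.5%) rests on 2 light chain counts and says little. Per heavy chain count, lambda overlapped between the groups, at 0.0192 ± 0.0207 in Fes KO and 0.00432 ± 0.00317 in Fes WT (SD, n = 5 each), and 0.0114 in Fes KO without Fes KO 4. Iglc3, the near copy of Iglc2, had 1, 5, 1, 7 and 0 counts in Fes KO and 0, 1, 7, 1 and 8 counts in Fes WT, so that reads may be split between the pair. With Iglc3 added, lambda per heavy chain count rose from 0.00479 to 0.0176 in Fes WT 5 and from 0.00855 to 0.0107 in Fes KO 1. The separation of the shares was read from Iglc1 and Iglc2 alone. In Fes WT 5, Iglc3 had 8 counts beside 3 of Iglc1 and Iglc2 together, so the separation may not hold with Iglc3 added. Igkc, which enters each share, also belongs to the family chosen with this contrast known. Nothing is therefore read from the separation.

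Variable segments, which report rearranged transcripts, were counted beside the constant regions. Of 348 variable segment genes in the table, 158 had a count in some tumour and none passed the filter on low counts. Their summed counts were 49, 313, 4, 49 and 4 in Fes KO 1 to 5 and 490, 55, 431, 642 and 79 in Fes WT 1 to 5. Fes KO 3 and Fes KO 5 were again the lowest, and Fes KO 2 alone lay within the Fes WT range. Per Ighm count, variable segment counts were 0.145, 0.271, 0.00915, 0.138 and 0.0200 in Fes KO and 0.753, 0.129, 0.812, 1.80 and 0.199 in Fes WT. The Fes WT mean of 0.738 became 0.473 without Fes WT 4.

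The variable segment with the most counts was a different one in each tumour that had more than a few. In Fes WT 1 it was Igkv14-126, with 62 counts (12.7% of variable segment counts) there and 0 to 2 in the other tumours. In Fes KO 2 it was Ighv5-9-1, with 73 counts (23.3%, 95% Wilson interval 19.0% to 28.3%), and 17 or fewer elsewhere. Fes WT 3 was led by Igkv6-13 with 49 counts, Fes WT 2 by Ighv8-12 with 10 counts and Fes KO 1 by Igkv1-88 with 10 counts, the last with 0 counts in the other 9 tumours. Others were shared, such as Igkv1-110, the leading segment of Fes WT 4 with 40 counts, which had 70 counts in Fes KO 2 and 28 in Fes WT 3. Fes WT 5 was led by Igkv1-117 with 9 counts, while Fes KO 4 was led by the lambda segment Iglv1 with 3 counts. In Fes KO 3 the leading segment, Ighv1-26, had 2 counts, and in Fes KO 5 no segment had more than 1. The number of segments detected went from 3 in Fes KO 3 to 98 in Fes WT 4. Variable segments are near copies of each other, so counts of single ones are uncertain.

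How the genes varied together was measured across all 10 tumours on log2(CPM + 1), in 4 correlations with Benjamini-Hochberg adjustment over the 4. All levels come from the same libraries, and the tumours of both genotypes are pooled. The permutations also ran across both genotypes, so a difference between Fes KO and Fes WT in these levels enters r and the p-values. Since the family was chosen with that difference known, the p-values are given as descriptions. Igkc and the heavy chain sum had r = 0.93 (permutation p = 0.00019, adjusted p = 0.00048) and rho = 0.903, and r = 0.96 without Fes KO 3 and Fes KO 5, the 2 tumours farthest from the median. Igkc and Jchain had r = 0.93 (permutation p = 0.00024, adjusted p = 0.00048), rho = 0.903, and r = 0.93 without the same 2 tumours. The heavy chain sum and Jchain had r = 0.91 (permutation p = 0.00059, adjusted p = 0.000787), rho = 0.867, and r = 0.90 without Fes KO 2 and Fes KO 5. Within Fes KO and within Fes WT, r was 0.88 and 0.98 for the first pair, 0.91 and 0.88 for the second and 0.90 and 0.80 for the third, each over 5 tumours and with no test. These relations thus had the same sign inside each genotype.

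Ighg2c went with the kappa chain less closely. Over the 10 tumours its r with Igkc was 0.66 and its rho 0.769, given as a description, since the difference between the genotypes that drew attention to Ighg2c enters both. Without Fes WT 3 and Fes WT 4, the tumours with Ighg2c farthest from its median, r was 0.44. The size of r thus depends in part on those tumours. Within the genotypes r was 0.84 in Fes KO, where Fes KO 2 is the only tumour with a count of Ighg2c, and 0.27 in Fes WT.

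Outside the immunoglobulin genes, the tested genes with a profile most like that of Igkc over the 10 tumours, by Pearson r of log2(CPM + 1), were Eomes (r = 0.97), Slc25a26 (0.95), Klf8 (0.94), Naaa (0.94) and Ccdc126 (0.94). Jchain ranked 7 of the 14809 genes compared. Most like Ighg2c were Trpc4ap (r = 0.94), Gm16118 (0.93), Dnajc1 (0.92), Col22a1 (0.91) and Gm5421 (0.90). These are the upper end of many comparisons and are given as descriptions.

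Genes of antibody-making cells and their surroundings were followed in 6 lists, with 54 tested genes in all. None of the 54 was called in the comparison of Fes KO with Fes WT (edgeR quasi-likelihood test), while 11 had an unadjusted p below 0.05. On simulated data this fit recovered 55% of 2-fold changes, so a gene that was not called may still differ. DESeq2 and limma-voom each called 2 genes of the lists, Bcl6 and Fcrls. Of all 14816 tested genes, 0.175% were called by edgeR, 1.82% by DESeq2 and 0.776% by limma-voom, and 9.62% had an unadjusted p below 0.05 in edgeR.

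In the B cell list, 7 of 15 genes were tested, 4 were below 0, and the median log2 fold change was -0.09. Its tested genes with the highest levels were Cd72, a B cell surface inhibitor of signalling, at -1.19 (SE 0.57, adjusted p = 0.545 by edgeR), Cd22, a sialic acid receptor that dampens the B cell receptor, at -0.74, and Bank1, a scaffold of that receptor, at -0.43. Summed levels of the list were 11.8 to 42.1 CPM for Fes KO and 16.3 to 49.1 CPM for Fes WT. The classical B cell genes Ms4a1 and Pax5, picked after their values were seen, together had 2, 1, 4, 54 and 3 counts in Fes KO and 4, 1, 11, 0 and 2 counts in Fes WT. Fes KO 4, the tumour with the most Ighd, stood above the rest. Ms4a1 alone was at 0 in Fes KO 1, Fes KO 5, Fes WT 2 and Fes WT 4, where Ighm had 200 to 427 counts.

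In the plasma cell list, 13 genes were tested, 4 were below 0, and the median was 0.15. Its highest genes were Txndc5, a chaperone of the secretory pathway, at 0.15, Xbp1, the transcription factor of the unfolded protein response, at -0.23, and Sdc1, the plasma cell surface proteoglycan CD138, at 1.16 (SE 0.46, adjusted p = 0.468 by edgeR). Keratinocytes also express Sdc1, and their markers were highest in Fes KO 2. Their part in the Sdc1 value was not tested. Jchain had 23, 161, 1, 2 and 4 counts in Fes KO and 77, 23, 194, 194 and 36 counts in Fes WT. By counts, Fes KO 2 lay within the Fes WT range, Fes KO 1 was level with Fes WT 2, and the other 3 lay below that range. In CPM, Fes KO 1 was at 1.45, just under Fes WT 2, the lowest of its group, at 1.46. The log2 fold change of Jchain was -1.49 (SE 1.16, adjusted p = 0.709 by edgeR). Mzb1, a chaperone of IgM assembly, had 1 to 8 counts in every tumour.

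**Figure D4:**
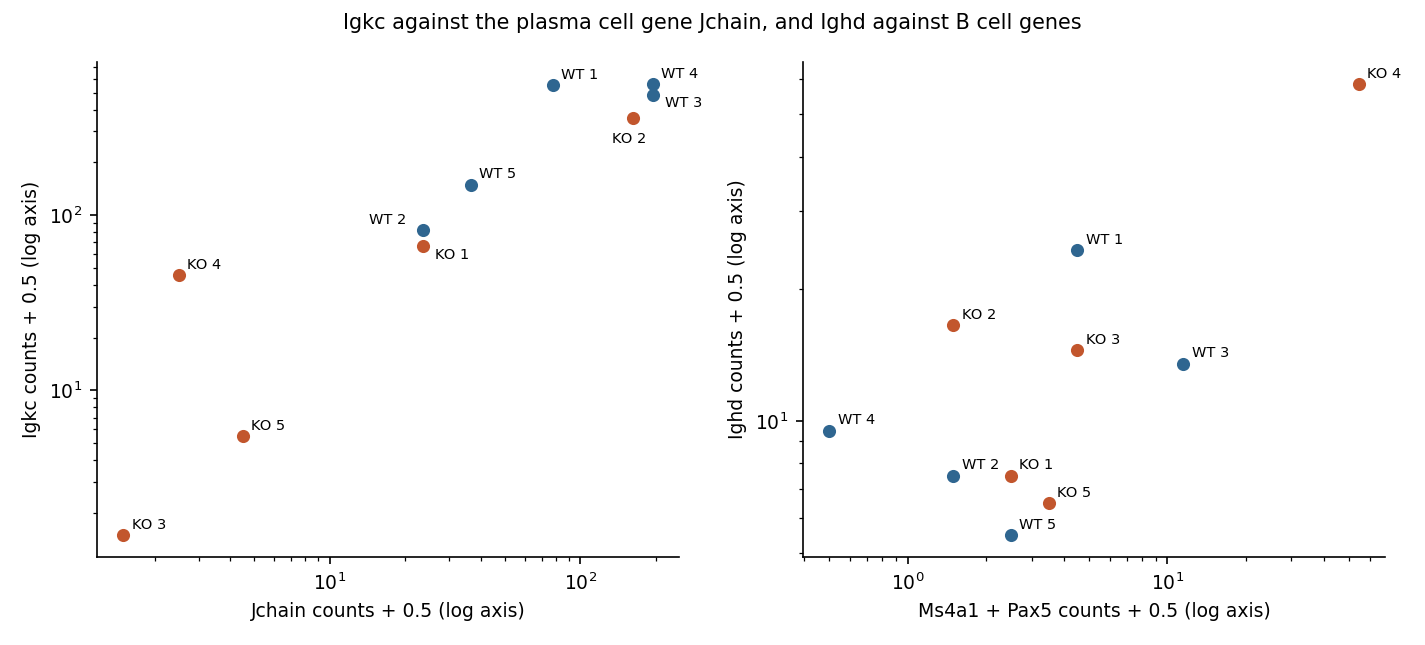
Igkc against Jchain (left) and Ighd against the sum of Ms4a1 and Pax5 (right), in counts plus a small constant on log axes, with 1 labelled point per tumour (orange for Fes KO, blue for Fes WT). Jchain and Igkc are both low in Fes KO 3 and Fes KO 5 and high in Fes KO 2, Fes WT 3 and Fes WT 4, while Fes KO 4 is highest on both axes of the right panel, with 58 Ighd counts and 54 counts of the 2 B cell genes.

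Of the genes of class switching and the germinal centre, 12 were tested, with 7 below 0 and a median of -0.08. Bcl6, the germinal centre repressor, had the lowest adjusted p at -0.66 (SE 0.15, adjusted p = 0.193 by edgeR), and S1pr2, which keeps germinal centre B cells in place, was at 0.11. Trp53bp1, a DNA repair factor needed for switching, was at -0.11.

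Among signals of isotype choice and plasma cell survival, 6 were tested, 5 were below 0, and the median was -0.74. Tnfsf13b, the survival factor BAFF, was at -1.85 (SE 0.56, adjusted p = 0.329 by edgeR), Cxcl12, the chemokine of plasma cell niches, at -1.16 (SE 0.46, adjusted p = 0.468), and Tgfb1, a signal for IgA switching, at 0.22. Of 10 tested genes of Fc receptors and immunoglobulin transport, all had a value below 0, with a median of -0.51. They include Fcgr2b, the inhibitory IgG receptor, at -0.22, Fcgrt, the neonatal receptor that recycles IgG, at -0.38 (SE 0.13, adjusted p = 0.388 by edgeR), and Fcrls at -1.31 (SE 0.35, adjusted p = 0.261). Pigr, the transporter of polymeric IgA and IgM, had 0 counts. The 6 tested genes of lymphoid chemokines and aggregates were also below 0, with a median of -0.90, among them Ltbr at -0.19 and Ltb at -0.82. Of all tested genes, 47.6% were below 0, and genes of 1 list can follow the same cells.

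Markers of other cells moved as follows beside these values. All 10 tested macrophage markers had a log2 fold change below 0, with a median of -0.78 and summed levels of 907 to 2127 CPM for Fes KO and 1450 to 3412 CPM for Fes WT. All 8 tested T cell markers were below 0, with a median of -0.88 and sums of 3.76 to 25.2 CPM for Fes KO and 9.87 to 37.3 CPM for Fes WT. None of these markers was called by edgeR, and 5 of them, all macrophage markers, had an unadjusted p below 0.05. Of all 14816 tested genes, 47.6% were below 0 and 9.62% had an unadjusted p below 0.05 in edgeR. Markers of 1 cell type can follow the same cells, so they are not separate observations. Fc receptors are expressed by macrophages, and the part of macrophage content in their values was not tested. The T cell sum was highest in Fes WT 5 and lowest in Fes KO 3 and Fes KO 5, the tumours with the least Igkc. Skeletal muscle markers had a median of -2.92. Their sums were 3.06 to 1746 CPM for Fes KO and 4.42 to 14043 CPM for Fes WT. Keratinocyte markers had a median of 2.86 over 3 tested genes, with sums of 13.5 to 241 CPM in Fes WT. Only Fes KO 2, with a sum of 5340 CPM, exceeded that range. The sums of Fes KO 1, 3, 4 and 5 were 14.9, 14.4, 13.3 and 11.4 CPM, at its lower end or below it. The median above 0 therefore does not describe these tumours.

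The 3 tumours with Xist, Fes KO 1, Fes KO 2 and Fes WT 5, divide the groups unevenly. Fes KO 1 and Fes KO 2 were the Fes KO tumours with the most Igha, Igkc and Jchain. Without these 3 tumours, 3 Fes KO against 4 Fes WT, the log2 fold changes were -5.71 for Igha, -4.55 for Igkc and -0.55 for Ighm, and Ighg2c had 0 counts in all 3 remaining Fes KO tumours. Among the tumours with Xist, 2 were Fes KO and 1 Fes WT: Igha had 113 and 501 counts in Fes KO 1 and Fes KO 2 and 156 in Fes WT 5, while Ighg2c had 0 and 2 counts against 38.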

How the data were processed

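RNA was sequenced from 10 mouse melanomas, grouped by sample title. The authors deposited raw read counts per gene and log2 values, which from the values are counts divided by a size factor, with 1 added before taking logs. The submitters' processing notes name STAR version 2.51b, Subread version 1.4.6, FastQC and mm10 (GRCm38). The sources used here give no settings for them and no strand. Per the labels' protocols, RNA with an RIN above 7 was used.

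Under R version 4.3.3, edgeR version 4.0.16 was fitted to the counts (TMM, filterByExpr, quasi-likelihood, 2-sided, Benjamini-Hochberg over 14816 genes, threshold 0.05). The fit was tested on simulated data, where it recovered 55% of planted 2-fold and 89% of planted 4-fold changes, with 6 false calls among 150. Changes were planted only in genes above a minimum level, so recovery in lower genes was not measured. Log2 fold changes are Fes KO over Fes WT, CPM uses TMM library sizes, and n is tumours. Shares have Wilson 95% intervals. Correlations used 100000 permutations, 2-sided. Sequences and exons came from GENCODE M21 transcripts, compared with Biopython version 1.88.

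The constant region genes and the 10 gene lists were chosen with earlier results of these data known. The naming rule takes from each list every called gene, or else the 3 tested genes of highest mean CPM. It was followed for the 6 lists on antibody-making cells, while the macrophage, T cell, skeletal muscle and keratinocyte lists are given as sums and medians. Also named are Jchain as part of the correlations, the 5 genes most like Igkc and Ighg2c, and the leading variable segment of each tumour. Other genes are named as picked after their values were seen: Mzb1, Pigr and the pigment genes. Alternatives were RLE factors, DESeq2 version 1.42.0, limma version 3.58.1 (voom, and limma on the deposited log2 values), other filters, a replicate block and left-out tumours. No sample was left out. Ighg2a was not analysed here, and 1 gene that the rule takes from the 6 lists, with some shared background, is not reported here.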

Additional observations from a re-analysis of the deposited data

Results flagged for a closer look

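In 44 groups of 5 tumours, 14 values stood so far from the nearest other tumour of their group that the gap passed Dixon's 95% limit. That limit assumes normally distributed values, while these levels and shares are skewed and hold many 0s. The number passing it therefore cannot be set against a chance rate. Many of these groups share a tumour or a gene, so they are not separate findings. Fes KO 2 accounted for 10 of the 14. Its levels were 3.31 CPM for Ighg1 (nearest Fes KO tumour 0.126), 0.125 CPM for Ighg2c (nearest 0), 31.2 CPM for Igha (nearest 7.12), 71.9 CPM for Ighm (nearest 26.9), 22.4 CPM for Igkc (nearest 4.16) and 2.68 CPM for Iglc1 (nearest 0.588). Its summed heavy chain level was 107.9 CPM (nearest 29.5) and its summed variable segment level 19.5 CPM (nearest 3.20). Ighg1 made up 3.06% of its heavy chain counts (nearest 0.427%) and Ighg2c 0.116% (nearest 0%). This tumour is also the one with 5340 CPM of keratinocyte markers, and it has Xist. The part of either in these values was not tested.

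Fes KO 4 stood out for Ighd, at 3.79 CPM (nearest 0.998) and 13.3% of heavy chain counts (nearest 3.10%). Its 54 counts of the B cell genes Ms4a1 and Pax5 were the most of all 10 tumours. Fes WT 1 stood out for Ighg1, at 37.8 CPM (nearest 5.86) and 35.1% of heavy chain counts (nearest 7.04%). It was also the tumour whose leading variable segment, Igkv14-126, had 62 counts there and at most 2 elsewhere.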

How the results depend on the processing

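The number of changed genes, 26 with edgeR, was 270 with DESeq2, 115 with limma-voom, 64 (36 higher, 28 lower) without the 3 tumours with Xist, and 10 to 54 when 1 tumour was left out. It was 10 without Fes KO 1 or Fes KO 3, 12 without Fes KO 5, 15 without Fes WT 1, 11 without Fes WT 2, 16 without Fes WT 4 and 54 without Fes WT 5. With the replicate block it was 4. Same-numbered tumours deviated together with correlations of -0.382 to 0.175, and 1 of 10 tumours correlated best with its own number. The labels do not say whether the numbers mark pairs, and these correlations cannot settle it. The cause of the shifts in the number of changed genes was not tested. Called list genes numbered 0 with edgeR and 2 with DESeq2 and 2 with limma-voom. Of the constant region genes, 3 to 6 were below 0 over 19 alternatives. Over those alternatives that kept them, log2 fold changes ran from -9.02 to -5.24 for Ighg2c (set by the handling of counts of 0), -4.64 to -3.15 for Ighg2b, -5.71 to -1.20 for Igha, -4.81 to -1.65 for Igkc and -0.56 to 0.20 for Ighm. The mean Ighg2c share in Fes WT was 5.76% and 9.13% per exonic length, and lambda per heavy chain count in Fes WT was 0.00432 and 0.00841 with Iglc3 added. The r of Ighg2c with Igkc was 0.44 without Fes WT 3 and Fes WT 4. Depth limits the shares most in Fes KO 5, with 215 heavy chain counts.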
